A study of Mus musculus with 4 samples.

Results

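The peaks described here are those whose chromosome, start and end were the same in the deposited AAV-GFP and AAV-NAT10 peak lists of a mouse liver RNA immunoprecipitation sequencing (RIP-seq) study. Of 33968 peaks in the AAV-GFP list and 41511 in the AAV-NAT10 list, 25001 had identical borders. They made up 73.6% of the AAV-GFP list (95% interval 73.1 to 74.1) and 60.2% of the AAV-NAT10 list (59.8 to 60.7), and were 25001 of the 50478 different peaks of both lists. Intervals on shares are exact (Clopper-Pearson) and cover counting error only. The members were chosen by the borders that the peak caller reported in both lists, so their number and their values are descriptions, and no test was made on them.

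Both groups were livers of C57BL/6 males that had received an adeno-associated virus (AAV), a gene delivery virus, which carried GFP in the control group and NAT10 in the other. For each virus there was 1 immunoprecipitated (IP) and 1 input library with no replicate, so no difference between the viruses has a replicate check. The labels' protocol names db/db mice, an obese diabetic strain, and lean controls as the source of RNA, while the sample labels do not. It speaks of an antibody to a protein but also gives a library type naming ac4C, so the labels do not settle what was precipitated; the sources used here give no age, virus dose, vector promoter or pooling of animals. Read counts and depths are unknown.

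NAT10 is the acetyltransferase that converts cytidine to N4-acetylcytidine (ac4C) in ribosomal RNA, transfer RNA and messenger RNA. In the nucleolus it belongs to the machinery that processes the precursor of the small ribosomal subunit's RNA. A RIP-seq peak is a stretch of transcript with more reads in the IP library than its background, and a peak list cut to annotated exons gives pieces whose borders can be those of the exon rather than those of the bound site.

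The borders of some peaks could be read against sequence. RefSeq (GRCm38.p6, the assembly of mm10) gives bases around annotated transcription starts, and 366 of the 25001 peaks began exactly at such a start. They were 1.85% of the identical peaks that could be placed along a gene with a strand. Among placed overlapping peaks with other borders the share was 2.19% in the AAV-GFP list and 2.58% in the AAV-NAT10 list. Among placed peaks without any overlap in the other list it was 3.26% and 3.77%. The share was thus lowest among the identical peaks. The junctions below belong to 3 peaks that ranked high by fold among the 366 identical start-site peaks, not among whole lists. The choice was made after the values were seen. Each shows, on the gene's strand, 15 bases before the start in lower case and the first 15 bases of the peak in capitals.
Eif4ebp2: ggtatcgcagcgggaCGACCGGGCGAGAGC
Cmip: tcccggcggtgggggGGTGCGGGCCCTCCG
Kbtbd7: gtcgtgtgagggtgaGCTAAGGGCTGAGAA

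The peak of Eif4ebp2, a repressor that binds the cap-binding factor eIF4E, lay at chr10:61452402-61452669 on the minus strand, with a fold of 18.64 in the AAV-GFP list and 24.36 in the AAV-NAT10 list. Cmip (chr8:117257019-117257401, plus strand) had folds of 16.64 and 14.94. The peak of Kbtbd7, a substrate adaptor of cullin ubiquitin ligases, covered 4529 bases (chr14:79426511-79431039, plus strand) at folds of 15.5 and 19.02. In all 3 the capitals open with the first base of the annotated transcript, which is how these peaks were selected.

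The first 50 bases of the 362 start-site peaks that were at least that long were searched for CNN repeated 4 times, a C followed by any 2 bases, which has been described at ac4C sites, and for GGAC, the core of the m6A motif. The CNN repeat was found on the gene's strand in 93 of them (25.7%, 21.3 to 30.5), against 21.1% of the 32817 start sites listed in RefSeq. Start-site peaks of the other classes held the repeat too, in 32.5% (22.4 to 43.9) and 32.3% (22.9 to 42.7) of the overlapping peaks with other borders in the AAV-GFP and AAV-NAT10 lists, and in 19.0% (12.0 to 27.9) and 27.0% (22.4 to 32.0) of those in 1 list only. These intervals all overlap that of the identical peaks. GGAC was found in 62 (17.1%, 13.4 to 21.4), against 18.8% of the listed sites and at most 19.3% in each of the other classes. Counted on either strand, where the motifs may overlap each other, the shares were 56.6% and 30.7%, against 43.3% and 33.3% of all sites. In the other classes they ran from 39.0% to 66.7% for the repeat and from 27.6% to 37.1% for GGAC. The windows differed in composition, with a median GC content of 62% against 56% of all sites and 58% to 68% in the other classes, and its part in the motif shares was not tested.

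Some identical peaks, mostly long ones, also held whole microRNA hairpins. Of 1005 hairpins in RefSeq, 20 lay entirely inside a peak of identical borders, in 17 host genes, and 13 of the 19 whose host had a known strand were on the host's strand. Identical peaks cover 60.7% of the bases of the AAV-GFP list and 54.1% of those of the AAV-NAT10 list. Hairpins in the other classes of peaks were not counted, so nothing particular to identical peaks can be read from the number. The genes named here lie outside the naming rule and were chosen after their values were seen. One peak of 4166 bases, assigned to 2010111I01Rik at chr13:63298712-63302877, held 4 hairpins: those of Mir23b, Mir27b and Mir24-1 on the host's strand and that of Mir3074-1 on the opposite strand, where it overlaps Mir24-1. A peak of 1412 bases at chr16:18283124-18284535 held Mir1306 in Dgcr8, whose protein is the RNA-binding subunit of the Microprocessor complex that cuts such hairpins. The mature arms below, of the hairpins on the host's strand, have the seed, bases 2 to 8, in capitals, and no seed occurs in more than 1 of them. For Mir23b only the 5p arm is shown.
mmu-miR-23b-5p: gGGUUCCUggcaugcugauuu
mmu-miR-27b-5p: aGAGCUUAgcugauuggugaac
mmu-miR-27b-3p: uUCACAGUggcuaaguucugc
mmu-miR-24-1-5p: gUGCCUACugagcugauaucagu
mmu-miR-24-3p: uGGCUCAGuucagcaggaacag
mmu-miR-1306-3p: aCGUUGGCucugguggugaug
mmu-miR-1306-5p: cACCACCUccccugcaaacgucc

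The 2010111I01Rik peak had folds of 7.33 in the AAV-GFP list and 9.39 in the AAV-NAT10 list, and the Dgcr8 peak 5.42 and 4.53. The hairpin of Mir1306 was on its host's strand. Since the lists give no strand, a primary microRNA transcript and a longer host transcript cannot be told apart in such a peak.

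Peaks with identical borders were mostly short. Their median length was 169 bases (interquartile range 124 to 276), and they ranged from 12 bases in Ero1lb and Stx16 to 17498 in Ahnak. Peaks that overlapped by at least 1 base but had other borders, 4702 in the AAV-GFP list and 4681 in the AAV-NAT10 list, had medians of 984 and 1003 bases. Peaks without any overlap in the other list, 4265 and 11829, resembled the identical ones in length, with medians of 152 and 157 bases. Peaks of at most 300 bases were 76.4% of the identical ones and 5.87% and 6.09% of those with other borders.

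Among peaks that overlapped one in the other list, the share with identical borders therefore depended on length. It was 84.2% in each list over all lengths. For peaks of 150 to 200 bases it was 99.3% (99.1 to 99.5) in the AAV-GFP list and 99.4% (99.2 to 99.6) in the AAV-NAT10 list. It was 48.1% (46.3 to 49.9) and 50.2% (48.4 to 52.1) between 500 and 1000 bases, and 66.9% (61.4 to 72.0) and 64.7% (59.2 to 69.8) above 5000. An overlapping peak up to 300 bases long thus had the same borders in both lists in 98.6% and 98.5% of cases, and a longer one in 57.2% and 57.3%.

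**Figure D1:**
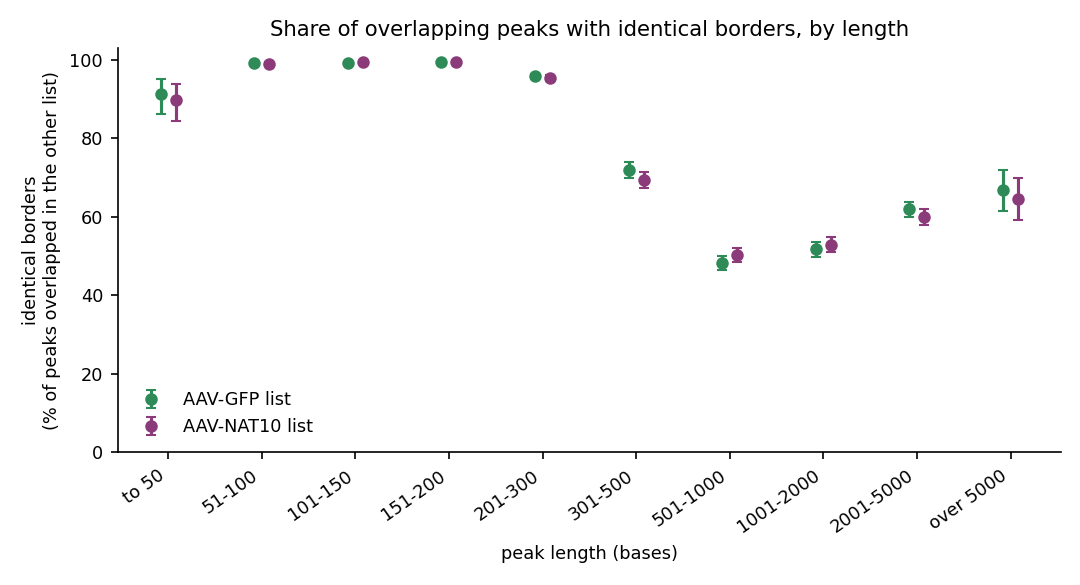
Share of the peaks overlapped in the other list that had identical borders (vertical axis, percent) by peak length in bases (horizontal axis), with exact 95% intervals as bars; circles stand for the AAV-GFP list in green and the AAV-NAT10 list in purple. The share is 99.3% and 99.4% at 150 to 200 bases and 48.1% and 50.2% at 500 to 1000 bases.

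The same share hardly moved with the strength of the peak. In 5 equal classes of peak score (minus 10 times the log10 of the authors' p-value), it ran from 82.7% to 85.2% for AAV-GFP peaks and from 82.7% to 85.2% for AAV-NAT10 peaks. What moved with score was the chance of any overlap, so that of all peaks in the lowest class 59.9% had identical borders in the AAV-GFP list and 31.2% in the AAV-NAT10 list, and of those in the highest class 79.6% and 76.4%.

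Every one of the 25001 peaks was assigned to the same gene and the same transcript in both lists. Each listed peak had a name of its own, and no identical peak below the score ceiling repeated both the fold and the score of another peak of its gene. A RefSeq messenger RNA accession was the transcript of 22613 of them (90.4%), against 54.4% and 52.8% of the overlapping peaks with other borders and 82.3% and 85.1% of the peaks found in 1 list. A length divisible by 3, as an exon that keeps the reading frame has, was found in 9443 (37.8%, 37.2 to 38.4). Among overlapping peaks with other borders it was found in 33.8% (32.4 to 35.1) and 34.4% (33.0 to 35.8). Peaks in 1 list only had 37.9% (36.5 to 39.4) in the AAV-GFP list and 37.6% (36.7 to 38.5) in the AAV-NAT10 list, with intervals that overlap that of the identical peaks. Within the identical peaks placed on a gene it was found in 38.0% (37.3 to 38.7) of those with neither border at a gene end. It was found in 35.1% (32.7 to 37.6) of those that ended at a gene's 3′ end.

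By RefSeq gene spans, 19756 of the peaks (79.0%) could be placed along a gene with a strand. Most, 18159, overlapped the gene's span with neither border exactly at its ends, and had a median length of 160 bases. Any that ran past a gene end are counted among these. At the annotated 3′ end of the gene, 1487 (7.53%, 7.16 to 7.90) ended exactly, against 6.94% and 6.49% of all placed AAV-GFP and AAV-NAT10 peaks. The shares were 7.26% and 7.89% of overlapping peaks with other borders, and 3.11% and 3.75% of peaks in 1 list only. Of the identical ones, the 1479 that did not also reach the 5′ end had a median length of 1910 bases. Only 118 identical peaks (0.597%) began exactly at the gene's 5′ end, against 0.777% and 1.02% of all placed peaks. The 110 identical ones that reached the 5′ end alone had a median length of 367.5 bases. The 3′-end peaks were long and high-scoring. Of the 1479, 442 in the AAV-GFP list and 702 in the AAV-NAT10 list stood at the highest score the lists give. The median folds of the 1479 were 6.54 and 8.02, against 6.73 and 7.44 for the peaks with neither border at a gene end.

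With the gene divided into 10 equal parts from 5′ to 3′, the share of identical peaks grew from 4.82% in the first part to 18.3% in the last, with a median position of 0.649 on a scale from 0 at the 5′ end to 1 at the 3′ end. The overlapping peaks with other borders gathered at the 3′ end, with 42.8% of them in the last part in the AAV-GFP list and 42.4% in the AAV-NAT10 list, and median positions of 0.847 and 0.840. They were also more frequent in the first part, at 9.91% and 10.1%. Length and position moved together here, since 3′-end peaks were the longest, and their separate parts were not tested.

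**Figure D2:**
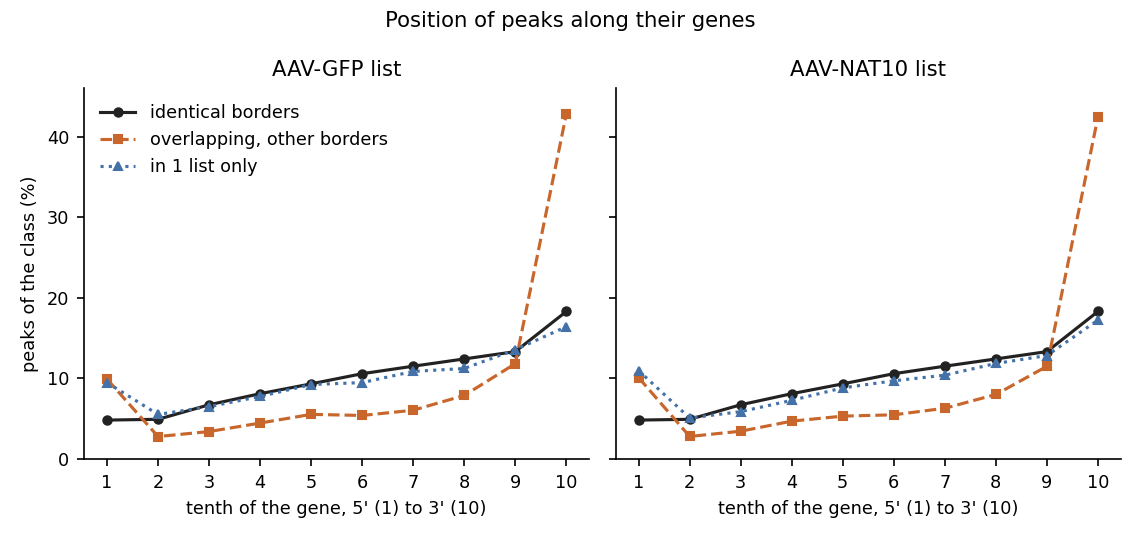
Percent of the peaks of each class (vertical axis) in each of 10 equal parts of the gene from 5′ to 3′ (horizontal axis), in the AAV-GFP list on the left and the AAV-NAT10 list on the right; lines join the identical peaks (black circles), overlapping peaks with other borders (orange squares) and peaks in 1 list only (blue triangles). The last part holds 18.3% of the identical peaks and 42.8% and 42.4% of the overlapping peaks with other borders.

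Peaks that missed identity usually missed it at 1 border. Of 4162 pairs of 1 peak with 1 peak whose borders differed, 3675 (88.3%) shared 1 border and 487 shared neither. Of the 3293 pairs with a strand, 2243 (68.1%) shared the 5′ border and 678 (20.6%) the 3′ border. Where 1 border was shared, the other differed by a median of 65 bases (23 to 164, range 1 to 3724). The nearest to identity were 57 pairs that differed by 1 base. Their median length in the AAV-GFP list was 885 bases and their median folds were 6.69 and 7.6, so they were long peaks with folds like those of the identical ones.

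The fold enrichment of each peak is the authors' linear ratio over background, and it ranks peaks within a list only. Folds of both lists are set side by side below and measure no change. The median fold of the identical peaks was 6.73 (interquartile range 5.17 to 8.85) in the AAV-GFP list and 7.47 (5.64 to 9.88) in the AAV-NAT10 list. Overlapping peaks with other borders had medians of 5.91 and 6.64, and peaks in 1 list only 4.88 and 4.92. The median score of the identical peaks was 279 in the AAV-GFP list and 447 in the AAV-NAT10 list.

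Scores in both lists stop at 3100 or slightly above, so peaks there have no order among themselves. In the AAV-GFP list 1252 of the identical peaks (5.01%) stood at this ceiling, against 4.56% of all its peaks. In the AAV-NAT10 list 2251 (9.0%) did, against 6.96% of all its peaks. Both shares of the identical peaks lie near those of the whole lists, of which these peaks are the larger part. Of the overlapping peaks with other borders, 5.53% in the AAV-GFP list and 10.2% in the AAV-NAT10 list stood there. Of the peaks in 1 list only, 0.868% and 1.37% did. At the ceiling in both lists were 1152 peaks of 1032 genes, which are 92.0% of the AAV-GFP ones and 51.2% of the AAV-NAT10 ones. Huwe1, a giant ubiquitin ligase, held 7 of these, and Ubr4, a ubiquitin ligase of the N-degron pathway, held 6. Kmt2c, a histone H3 lysine 4 methyltransferase, Wdfy3, an autophagy adaptor, and Arhgef12, a guanine nucleotide exchange factor, held 5 each. The top decile by score (10.0% of each list) held 3397 AAV-GFP and 4152 AAV-NAT10 peaks, of which 2690 and 3197 were identical ones. Of all peaks in the lists, 73.6% and 60.2% were identical.

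Across the 25001 peaks the folds of the lists had a Spearman correlation of 0.627, and the scores 0.755. These are descriptions over peaks with the same borders, gene and transcript in both lists, and each list rests on 1 IP and 1 input library. The 4162 overlapping pairs with other borders had a correlation of folds of 0.585. The top decile of identical peaks by fold held 2501 peaks in each list, from 11.4 upward in AAV-GFP and from 12.8 in AAV-NAT10. Of these, 1129 peaks of 562 genes, 45.1% of each decile, were in both.

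Only 8 peaks were in the top decile of the identical peaks by fold in one list and in their bottom decile in the other. These deciles are among the identical peaks and are not those of the whole lists. High in the AAV-GFP list were peaks of Abca8b, an ABC transporter, with folds of 12.29 and 4.29, of Abhd2, a serine hydrolase, with 11.98 and 4.13, of Lrch3 with 12.68 and 4.21, and of the predicted gene Gm3435 with 11.89 and 4.49. High in the AAV-NAT10 list were peaks of Nat10 with folds of 4.10 and 15.88, of Srebf2, the sterol-regulated transcription factor of cholesterol synthesis, with 4.14 and 14.22, of Gcn1l1, which couples stalled ribosomes to the kinase GCN2, with 3.86 and 15.18, and of Nus1, a subunit of the enzyme that makes dolichol, with 4.10 and 13.65. These 8 were singled out after their values were seen. All of them except the Nus1 peak, at the gene's 5′ end, lay inside the gene.

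**Figure D3:**
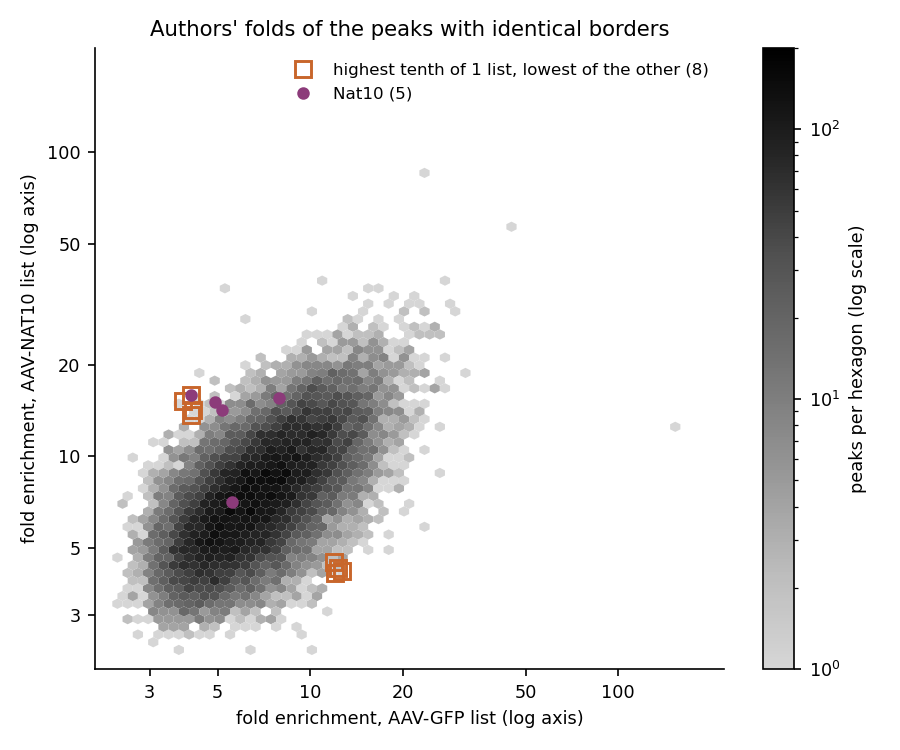
Authors' fold enrichment of the 25001 peaks in the AAV-GFP list (horizontal, log axis) and the AAV-NAT10 list (vertical, log axis). The number of peaks per hexagon is in grey on a log scale, and purple circles are the 5 Nat10 peaks. Orange squares are the 8 peaks in the top decile of the identical peaks in one list and their bottom decile in the other. The cloud follows a Spearman correlation of 0.627, and 3 of the 5 Nat10 peaks lie along its upper left edge.

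Nat10 itself, on the minus strand of chromosome 2, held 5 peaks of identical borders among 9 in the AAV-GFP list and 10 in the AAV-NAT10 list. Reading from 5′ to 3′, the first lay at 103748186 to 103748300, with a fold of 4.88 in the AAV-GFP list and 15.08 in the AAV-NAT10 list. The second, at 103744286 to 103744419, had folds of 5.17 and 14.21. The third, at 103739560 to 103739889, had 4.10 and 15.88. All 3 lay between 0.353 and 0.557 of the gene, in the lower part of the AAV-GFP folds and in the upper part of the AAV-NAT10 folds. The fourth, at 103727803 to 103727913, had folds of 7.90 and 15.61. The last, at 103721256 to 103721928 and 0.992 of the gene, had 5.56 and 7.10.

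Another 3 Nat10 peaks in each list overlapped with other borders, and 1 AAV-GFP and 2 AAV-NAT10 peaks had no counterpart. Among the identical peaks the first 4 stood at percentiles of 20.2, 25.2, 8.57 and 65.5 by fold in the AAV-GFP list and of 95.3, 93.8, 96.4 and 96.1 in the AAV-NAT10 list. The 3′-most peak stood at 32.0 and 45.1, and it alone was below the score ceiling in the AAV-NAT10 list, with a score of 67.1. The AAV-NAT10 vector carries NAT10, and reads of the vector's transcript and of the mouse gene cannot be told apart in these lists. Whether the vector's insert holds the sequence of the 3′-most peak is not stated in the labels.

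The highest folds were in single peaks of genes of varied function. In the AAV-GFP list, after 2 predicted genes that the naming rule passes over (Gm10800 at 159.04 and Gm7292 at 45.74), the highest was a peak of 242 bases in Vps54, a subunit of a complex that tethers vesicles to the Golgi, with a fold of 31.49 there and 18.37 in the AAV-NAT10 list. Crebrf, a negative regulator of the endoplasmic reticulum stress factor CREB3, followed with 29.52 and 30.9 over 5344 bases. Next were Zfp236, a zinc finger gene, with 27.66 and 16.54, Tnrc18 with 27.62 and 31.95, and Pum2, a translational repressor that binds RNA, with 27.23 and 39.06. These folds were high in both lists, above the decile limits of 11.4 and 12.8. An exception among the first 10 was Exph5, a Rab27 effector, whose peak of 8916 bases had 26.17 and 9.10. The others were Zc3h12c with 27.11 and 24.99, Lnpep with 26.64 and 20.87, Atp13a3 with 26.29 and 24.94, and Pitpnm2 with 25.95 and 26.7.

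In the AAV-NAT10 list the highest fold of an identical peak was 85.53 in Slc38a2, an amino acid transporter, over 2837 bases at the 3′ end, with 23.81 in the AAV-GFP list. Pum2 came next among named genes. Mgam, an intestinal starch-digesting glucosidase, followed with 38.75 against 10.61, and Fnip1, a folliculin partner in mTOR signalling, with 36.43 against 14.96. Mug2, a protease inhibitor of the alpha-2-macroglobulin family with close copies that make its reads uncertain, had 35.89 against 5.17. Tulp4 had 34.61 against 16.54, and Ptch1, the Hedgehog receptor, 34.5 against 22.17. Nrip1, a corepressor of nuclear receptors, had 33.55 against 13.44 over 7616 bases, Wdfy3 33.01 against 18.68, and Lars2, the mitochondrial leucyl-tRNA synthetase, 32.7 against 15.3. All 10 stood at the ceiling in the AAV-NAT10 list.

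Ptch1 showed how evenly a whole gene could rank. All of its 11 peaks in the AAV-GFP list had identical borders, and 12 were listed for AAV-NAT10. Their folds ran from 11.97 to 24.76 with a median of 22.17 in the AAV-GFP list, and from 13.01 to 34.5 with a median of 18.89 in the AAV-NAT10 list. Each of the 11 was therefore above the limit of the top decile of identical peaks in both lists.

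Of the 10 longest identical peaks, 6 could be placed, and 5 of these had a position between 0.769 and 1.0 of the gene. A position of 1.0, that of Tmem245, can stand for a middle beyond the annotated 3′ end. The exception was the longest of all, in Ahnak, a giant scaffold protein. That peak covered 17498 bases around 0.241 of the gene and ranked low, with folds of 4.98 and 6.25. Pura, a single-stranded nucleic acid binding protein, had 14490 bases at folds of 9.98 and 16.82. Tmem245 had 13370 bases at 9.70 and 11.97, and Onecut2, a liver-enriched transcription factor, 12144 at 10.31 and 9.69. Ago2, the slicing Argonaute of RNA interference, had 11173 bases at 13.16 and 16.02, and Pou2f1, an octamer-binding factor, 10895 at 15.23 and 12.05. Slc5a3, the myo-inositol transporter, Hook3, Ubn2 and Zfp871 had 10512 to 10754 bases, with folds of 6.89 to 11.87 and 8.17 to 12.63. Borders could thus coincide over a long peak whose folds ranked apart, as in Slc5a3 with 6.89 and 12.63.

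By gene, 5495 genes held at least 1 identical peak, which is 61.8% of the 8889 genes with a peak in either list and 77.6% of the 7081 with peaks in both. The median was 2 per gene (interquartile range 1 to 6), and 1870 genes (34.0%) had 1. The 686 genes with at least 10 held 11139 of the peaks (44.6%). Predicted genes held 492 (1.97%). By chromosome, the share of AAV-GFP peaks with identical borders lay between 68.7% on X and 84.6% on Y, where 33 such peaks were listed.

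The most identical peaks were in Syne2, a nesprin that links the nucleus to the cytoskeleton, which had 76 of its 84 AAV-GFP and 86 AAV-NAT10 peaks. Neb, nebulin of muscle thin filaments, had 73 of 80 and 90, with median folds of 6.92 and 5.34. Mycbp2, a ubiquitin ligase, had 65 of 68 and 71, and Utrn, the dystrophin relative utrophin, 65 of 67 and 67. Syne1 (63 peaks), Vps13c (55), Herc2 (52), Macf1 (52), Vps13b (47) and Itpr2 (45) completed the first 10. Utrn had no overlapping peak with other borders, and its 2 remaining peaks in each list had no counterpart.

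In 1000 genes every peak of both lists was an identical one, and 589 of these had a single peak. The 107 with at least 5 were led by Ascc3, a helicase of the ribosome and alkylation damage responses, with all 37 peaks shared and median folds of 8.48 and 7.62. Atrnl1 had 29 of 29, at 10.93 and 11.28, and Rabgap1l, a Rab GTPase activator, 23 of 23, at 10.27 and 10.2. Dcaf6 had 16 and Sfmbt1, a Polycomb-type reader of methylated histones, 14. In these genes the lists named the same set of pieces and no other.

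The reverse was found in 1586 genes with peaks in both lists and no identical peak, of which 742 had 1 peak in each list. Kcnq1ot1, a long noncoding RNA that silences the Kcnq1 imprinted cluster, had 12 AAV-GFP and 10 AAV-NAT10 peaks, and every overlapping one differed in its borders. Its transcript is unspliced, as background. L3mbtl3, a reader of methylated histones, had 1 and 12 peaks, Slc17a8, a glutamate transporter, 1 and 11, and Ankrd44 3 and 8. Anxa6, a calcium-dependent membrane-binding protein, is not among the 1586 genes. It had 14 peaks in the AAV-NAT10 list and none in the AAV-GFP list, so that no peak could be shared.

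Within single genes the folds of the lists also ranked alike to different degrees. Over the 128 genes with at least 20 identical peaks, the Spearman correlation within the gene had a median of 0.56 (interquartile range 0.41 to 0.66). It ranged from -0.289 in Ubr4, the only gene below 0, to 0.884 in Brwd3, a bromodomain protein. Ubr4 had 31 identical peaks with folds of 5.54 to 15.68 in the AAV-GFP list and 7.75 to 19.44 in the AAV-NAT10 list. Peaks of 1 gene share its transcript and libraries, so these values describe the gene and carry no test.

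The members were then read by gene lists, which were chosen with earlier results of these data known. In fatty acid and triglyceride synthesis, 14 of 26 genes had 102 identical peaks, which is 84.3% of these genes' AAV-GFP peaks and 69.9% of their AAV-NAT10 peaks, against 73.6% and 60.2% of all peaks. Their median folds were 6.71 and 8.02. Acaca, the cytosolic acetyl-CoA carboxylase that commits carbon to fatty acid synthesis, held 39 of them over 7433 bases, with folds of 4.47 to 12.76 (median 7.96) in the AAV-GFP list and 3.28 to 12.11 (median 8.40) in the AAV-NAT10 list. Acacb, the carboxylase at the mitochondrial surface, held 24, with medians of 5.71 and 8.18, and Gpam, the first acyltransferase of glycerolipid synthesis, held 11, with medians of 7.39 and 9.86. The lowest shares among genes with at least 3 peaks in each list were those of Agpat3 (4 of 6 and 6) and Me1, malic enzyme (5 of 6 and 9).

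Cholesterol synthesis and uptake had fewer, 29 peaks in 7 of 17 genes, which is 70.7% of the AAV-GFP and 46.8% of the AAV-NAT10 peaks of these genes. Their median folds were 5.61 and 8.86. Srebf2 held 14 of the 29, in 15 AAV-GFP and 16 AAV-NAT10 peaks. Its first 8, between 0.390 and 0.775 of the gene on the plus strand of chromosome 15, had folds of 3.82 to 9.17 in the AAV-GFP list and 7.35 to 15.11 in the AAV-NAT10 list. The next 5, between 0.806 and 0.903, had 4.20 to 6.54 and 3.89 to 6.27. The last, 1680 bases at 82203697 to 82205376, had 5.61 and 10.43. The ranges of both lists nearly coincided over the 5 peaks before the last one, and less so over the first 8. The peaks were grouped in this way after their values were seen, and the ranges measure no change between the lists.

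The squalene epoxidase Sqle held 2 identical peaks of 3 and 5, a share among the lowest of the list for genes with at least 3 peaks in each.

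**Figure D4:**
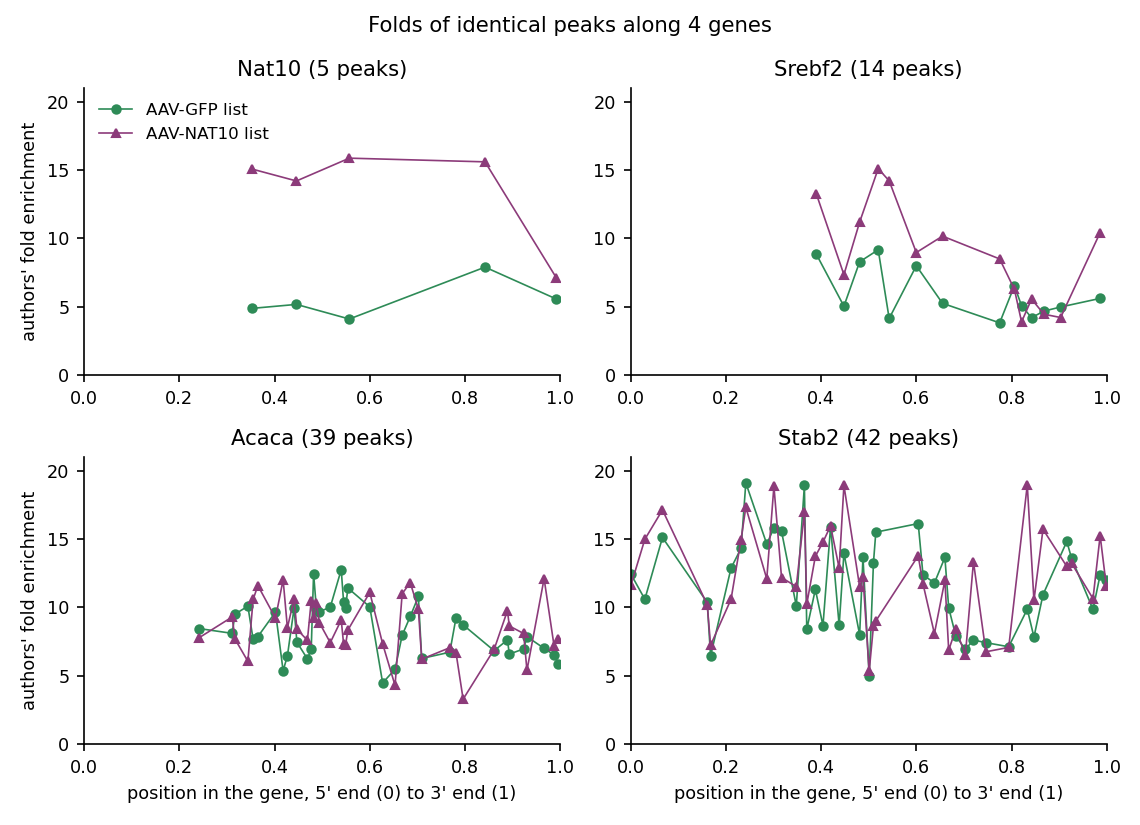
Authors' fold enrichment (vertical axis, from 0) of the identical peaks of Nat10, Srebf2, Acaca and Stab2 by the position of the peak's middle in the gene (horizontal axis, 0 at the 5′ end, 1 at the 3′ end); green circles are the AAV-GFP list and purple triangles the AAV-NAT10 list, joined in gene order. In Nat10 4 of 5 peaks have folds of 14.21 to 15.88 in the AAV-NAT10 list and 4.10 to 7.90 in the AAV-GFP list, while in Stab2 both lists run over the same range.

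Lipoprotein, ABC transporter and bile acid genes held 67 identical peaks in 10 of 22 genes (74.4% and 63.2%), at median folds of 6.73 and 7.91. Abcb11, the bile salt export pump, held 15, at medians of 6.51 and 6.63. Abca1, the cholesterol exporter, held 12 of its 13 AAV-GFP peaks and 24 AAV-NAT10 peaks, so that each peak overlapping between the lists was identical and 12 of the AAV-NAT10 peaks had no counterpart. Lrp1, an endocytic receptor for lipoprotein remnants, held 10, at medians of 5.29 and 8.78. Scarb1, the HDL receptor, held 2 of 4 and 3.

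Fatty acid oxidation held the fewest of the lipid lists. In 6 of 20 genes there were 8 identical peaks, 40.0% of the AAV-GFP and 23.5% of the AAV-NAT10 peaks. The strongest in rank was the single peak of Ppara, the nuclear receptor that induces oxidation genes, with folds of 15.51 and 21.45 over 5841 bases at the 3′ end and the ceiling in both lists. Cpt1a, the carnitine palmitoyltransferase that admits fatty acids to mitochondria, held 2, with folds of 6.78 and 7.12 in the AAV-GFP list and 10.74 and 8.34 in the AAV-NAT10 list. Crot, a peroxisomal carnitine acyltransferase, held 2, at medians of 5.21 and 5.55.

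Each of the 21 insulin and mTOR signalling genes held an identical peak, 172 in all (83.5% and 78.5%), at median folds of 7.08 and 8.66. Mtor, the kinase itself, held 26 of 29 and 30 peaks, with median folds of 5.92 and 8.68. Tsc2, a subunit of the complex that restrains mTOR complex 1, held 17, at 6.15 and 7.09. Rptor, the scaffold of that complex, held 17, at 6.44 and 10.88. Tsc1 (5 of 8 and 9) and Pik3r1, a regulatory subunit of phosphoinositide 3-kinase (2 of 5 and 7), had the lowest shares.

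RNA-binding, translation and silencing regulators held 231 identical peaks in 26 of 30 genes (81.6% and 72.6%), at median folds of 7.48 and 8.74. The count takes in 9 peaks of Virma, a subunit of the m6A methyltransferase complex, which the lists give under its older symbol 1110037F02Rik. Smg1, the kinase of nonsense-mediated decay, held 24, Eif4g3, a scaffold of translation initiation, 20, and the 5′ exonuclease Xrn1 19. Their median folds were 8.13 and 9.79, 6.53 and 8.37, and 5.67 and 6.95. Upf1, the decay helicase (3 of 5 and 5), and Paip1, a partner of poly(A)-binding protein (4 of 7 and 6), had the lowest shares. Pum2 held 11, and its strongest, 2995 bases at the 3′ end, had folds of 27.23 and 39.06 where the other 10 had 6.18 to 15.65 and 8.74 to 15.48.

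Chromatin regulators held 433 identical peaks in all 30 genes (86.4% and 81.4%), at median folds of 8.88 and 9.05. Kmt2c held 40 of 42 and 43, with medians of 9.61 and 8.74. Chd9, a chromodomain helicase, held 25, at 7.90 and 10.96. The remodelling subunits Arid1a (3 of 5 and 6) and Chd4 (3 of 6 and 4) had the lowest shares. In the list of 30 giant multi-exon genes, 28 held 1073 identical peaks (88.4% and 84.0%), the highest shares of any list with more than 10, at median folds of 7.93 and 8.57. Spen (5 of 9 and 9) and Reln (21 of 35 and 29) had the lowest shares there, and Ttn and Dnah8 had no peak in either list. Pkhd1 and Reln are counted both here and among the cell type markers.

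The partners of NAT10 and the genes of the small-subunit processome held 61 identical peaks in 11 of 14 genes (67.0% and 64.9%), at median folds of 5.84 and 5.40, below those of all identical peaks. Pdcd11, a ribosomal RNA processing factor, held 15 of 16 and 17, at medians of 6.63 and 5.80. Utp20 held 14 of 17 and 24, at 5.42 and 4.92, and Wdr43 held 8 of 11 and 8, at 7.70 and 6.66. Heatr1 (6 of 14 and 9) and Utp14a (2 of 5 and 6) had the lowest shares. Of the list's 5 identical peaks at the AAV-NAT10 ceiling, Nat10 held 4 and Pdcd11 held 1.

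The genes of 20 secreted plasma proteins had few peaks of any kind, 5 in the AAV-GFP list and 17 in the AAV-NAT10 list. Of these, 4 in 2 genes were identical, 80.0% and 23.5%, against 73.6% and 60.2% of all peaks. C4b, complement C4, held 1 of them, with folds of 5.60 and 7.51, and has a close gene copy that makes its reads uncertain. None of the 24 ribosomal protein genes held an identical peak, and 2 of them had any peak, 3 in each list.

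**Figure D5:**
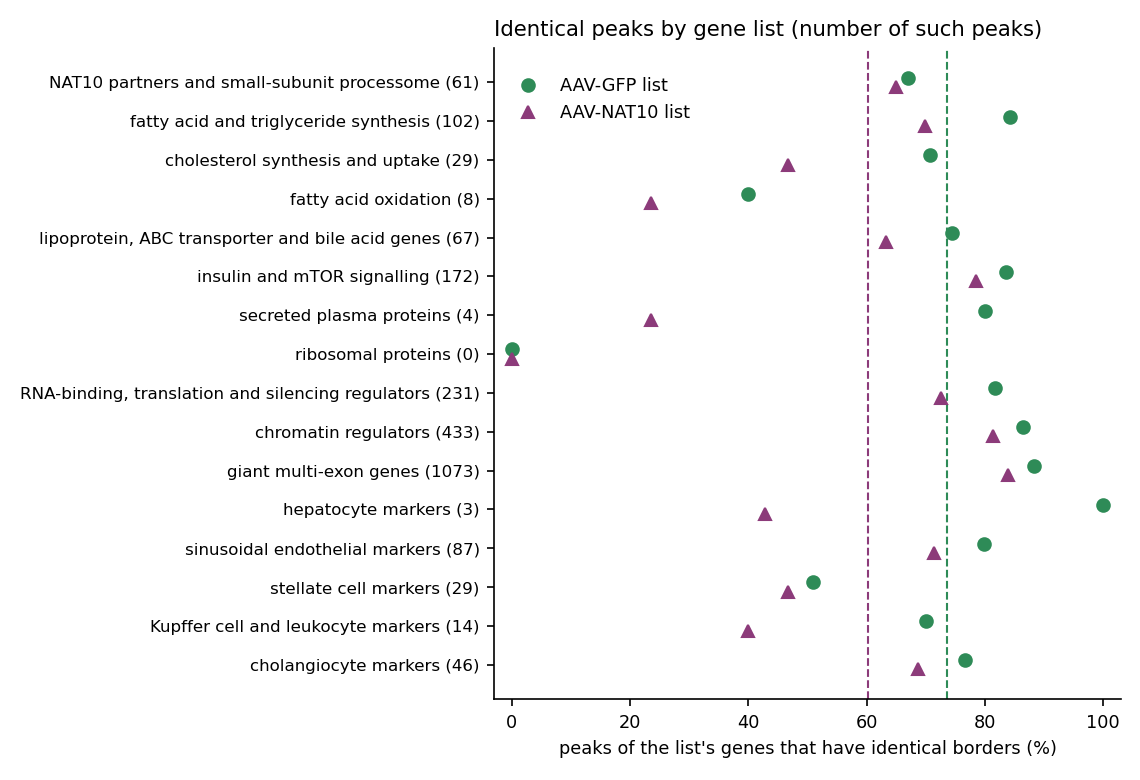
Percent of the peaks in each list's genes that had identical borders (horizontal axis), for 16 gene lists with the number of such peaks in brackets; green circles refer to the AAV-GFP list, purple triangles to the AAV-NAT10 list, and dashed lines mark all peaks of that list (73.6% and 60.2%). Giant multi-exon genes (88.4% and 84.0%) lie above both lines, and fatty acid oxidation genes (40.0% and 23.5%) lie below.

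Markers of liver cell types were read as a check of the tissue and were unequally represented. In whole liver, fewer cells of a type and less RNA per cell cannot be told apart, and a gene without a peak may still be transcribed. Of 15 hepatocyte markers, 2 held 3 identical peaks, which were all 3 of the markers' peaks in the AAV-GFP list and 3 of 7 (42.9%) in the AAV-NAT10 list. The transcription factor Cebpa held 1 of them over 2639 bases, with folds of 7.61 in the AAV-GFP list and 12.68 in the AAV-NAT10 list. No peak at all was listed for 11, among them Alb and Hnf4a, so the labelled tissue could not be checked on its most abundant transcripts.

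Of 14 sinusoidal endothelial markers, 9 held 87 identical peaks (79.8% and 71.3%), at median folds of 10.1 and 10.6. Stab2, a scavenger receptor for hyaluronan, held 42 of its 45 and 45 peaks, with folds of 4.98 to 19.12 (median 11.9) in the AAV-GFP list and 5.32 to 18.97 (median 12.04) in the AAV-NAT10 list. Its peaks ran along the whole gene from 0.001 to 0.999, and the ranges of the lists overlapped almost entirely. Ptprb, the endothelial receptor phosphatase, held 21, at medians of 12.18 and 11.52. Kdr, the VEGF receptor, held 6, at medians of 4.29 and 5.80, and Flt4 3 of 7 and 6.

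The remaining marker lists rested on a few genes each. Of 16 stellate cell markers, Reln held 21 identical peaks, Hgf, the hepatocyte growth factor, 7 and the basement membrane collagen Col4a1 1 (50.9% and 46.8% in all). The Hgf folds ran from 4.10 to 21.33 and from 4.13 to 24.78. Of 11 cholangiocyte markers, Pkhd1, fibrocystin, held 27, and the polycystins Pkd1 and Pkd2 held 8 and 6. Of 16 Kupffer cell and leukocyte markers, 5 held 14, led by the leukocyte phosphatase Ptprc with 6, at medians of 5.53 and 4.73, and by the macrophage genes Adgre1 and Csf1r with 3 each. Adgre1 folds were 3.50 to 4.88 and 4.21 to 6.83, in the lower part of the identical peaks.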

How the data were processed

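The 2 deposited peak lists, 1 per virus, each compare an IP library with its input and have peak names of the MACS type per the file headers; its version, the aligner and filters on reads are not given in the sources used. Positions are on mm10, as the submitters' processing notes name it. Per the file headers, the authors' peak caller gave the fold enrichment, a linear ratio over background, and the score, minus 10 times the log10 of the p-value. The false discovery rate was deposited as a percent and was not used for selection. Scores were at least 50 and stop at about 3100. The lists' positions, lengths, gene names and transcripts were used as deposited, with 1 added to starts.

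Lists were compared with Python 3.11.15, pandas 2.3.3, NumPy 2.4.6 and SciPy 1.17.1. Peaks were classed as identical (same chromosome, start and end), overlapping by at least 1 base with other borders, or in 1 list only; the classing was tested on simulated lists. Gene ends, strands, transcription starts and microRNAs came from RefSeq (GRCm38.p6), matched by gene ID for 24701 of the 25001 peaks. Position in a gene is that of the peak's middle, and a middle beyond a gene end was set to that end. With 1 library per group there is no test; intervals are exact at 95% and cover counting error only, and depth is unknown.

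The members, the 16 gene lists (326 entries, sought under the symbol in the lists or an older RefSeq symbol) and the tests were chosen with earlier results of these data known. Named genes are Nat10, the 10 with most members, the 10 with the highest fold in each list, the 10 longest members, the 5 with most peaks all identical, the 5 with most peaks and none identical, the 5 with most at both ceilings and, per gene list, the 3 with most members and the 2 with the lowest share among those with at least 3 peaks in each list; predicted genes were passed over, and some genes and 1 sequence that these rules select are not reported here. Exon borders and exon sequences were not used here, so the planned comparison with exons was replaced by gene ends, transcription starts and divisibility by 3. Alternatives were tolerant borders, 1 equal border, reciprocal overlap, stricter scores and equal numbers of peaks.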

Additional observations from a re-analysis of the deposited data

How the results depend on the processing

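Under every alternative run except equal numbers of top-score peaks, 19718 to 27327 peaks were counted as identical, and the shares moved with the border rule. With borders allowed to differ by 10 bases the shares were 75.1% of the AAV-GFP and 61.5% of the AAV-NAT10 list. With only the start equal they were 79.8% and 65.3%, with only the end equal 79.4% and 65.0%, and with reciprocal overlap of at least 0.9 80.4% and 65.8%. At scores of at least 100 in both lists the AAV-NAT10 share was 57.4%. With 16984 top-score peaks from each list, 10535 peaks in 3569 genes were identical, 62.0% of each, which follows in part from taking fewer peaks. Requiring overlap of at least 0.5 of both peaks put the identical share of overlapping peaks at 85.4% of the AAV-GFP and 85.4% of the AAV-NAT10 list. In the other cases the cause was not tested. Of the remaining results, at scores of at least 100 the NAT10 partner list fell from 61 to 36 peaks, the stellate list from 29 to 18 and the Kupffer cell and leukocyte list from 14 to 6. By score alone, below the ceiling, 15 identical peaks repeated another peak of their gene in the AAV-GFP list and 4 in the AAV-NAT10 list. The comparison with annotated exons was not run, because no exon annotation was used here. No paired analysis was possible because each group is 1 library and no result comes from a test. Unknown depth and IP yield enter every count of peaks, and a peak piece cut to an exon may carry the fold of a wider peak.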
